A study of Mus musculus with 18 samples.

Results

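The OAS family comprises the 2′-5′-oligoadenylate synthetases and the related OAS-like proteins, and its transcripts are described here in bone marrow-derived dendritic cells (DCs) profiled by bulk RNA-seq. Members were the entries of the deposited gene table whose symbol was Oas1a, Oas1b, Oas1c, Oas1g, Oas2, Oas3, Oasl1 or Oasl2. Each symbol had 1 entry, giving 8 of 62197 entries. Genes were tested where 3 or more libraries reached 10 normalized counts, and 17875 genes, among them all 8 members, met this filter.

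OAS enzymes are activated by double-stranded RNA and then link ATP into 2′-5′ oligoadenylates, second messengers of the antiviral response. Oasl1 and Oasl2 carry ubiquitin-like domains, and Oasl1 is known in mice as an inhibitor of Irf7 mRNA translation. Most of the family belongs to the genes induced by type I interferon, which DCs both make and sense.

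DCs were grown from bone marrow for 10 days in medium with a GM-CSF-containing supernatant, and the study asked how cell shape change alters their transcription and whether this requires the phospholipase cPLA2, encoded by Pla2g4a. The 6 conditions compared had 3 libraries each, 18 in all. Nonconfined WT and nonconfined KO cells were taken without treatment when the culture ended. Confined WT and confined KO cells were held under a surface 3 µm above the substrate and collected 4 h after confinement. LPS-treated cells labelled WT or KO received lipopolysaccharide at 100 ng/ml for 30 min, were washed, and were collected the next day without confinement. The 30 min are those of the labels, and the study's methods give a slightly shorter time. The treatment protocol label names LPS for every sample. Titles and characteristics name it for the LPS groups alone and were followed here. The KO cells came from mice with loxP-flanked Pla2g4a alleles (Pla2g4a fl/fl) crossed to an Itgax-cre transgene, so that deletion depends on the activity of the CD11c promoter in each cell, and the WT cells were cPLA2 WT. Strain and age are not in the labels. The study's methods give a C57BL/6 background for its breeders and an age in weeks for its bone marrow donors. Collection times differ between the treatments, so that time after culture and treatment cannot be told apart. Libraries held between 33027230 and 61300021 reads assigned to genes, and the smallest number of reads for a member in any library was 84, for Oas1c. The study calls its replicates biological, but whether they came from separate animals or cultures is not in the labels, so the p-values measure the spread between these libraries.

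Pla2g4a, the targeted gene, was read first as a check of the labels. Its normalized counts were 697, 686 and 770.4 in nonconfined WT and 548, 542 and 533 in nonconfined KO libraries. After confinement they were 1369, 1430.3 and 1321 in WT and 923, 871 and 919.5 in KO. KO libraries were lower than WT libraries without overlap in both settings, with log2 differences of -0.41 (limma adjusted p = 0.00019) and -0.60 (limma adjusted p = 3.81e-08), and a large share of the transcript remained. In the LPS libraries the counts were 1005, 969 and 967 under the WT label and 1065, 1032 and 1028 under the KO label, with the KO label the higher.

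Further genes were read as a check of the LPS labels. The Y-linked gene Ddx3y was at 949, 981 and 874 in nonconfined KO and at 3.05, 0 and 1.97 in nonconfined WT libraries, with the same split after confinement (1036, 920.2 and 948 against 0, 1.72 and 2.37). In the LPS libraries 1, 2 and 3 it was at 1271, 0 and 662 under the WT label and at 2.12, 1476 and 783 under the KO label, so that libraries 1 and 2 of each label are opposite and both libraries numbered 3 are intermediate. The closest pairs of LPS libraries by chi-square per degree of freedom had unlike labels, WT 2 with KO 1 at 5.45 and WT 3 with KO 3 at 6.59. The other unlike pairs ran from 13.7 (WT 1 with KO 2) to 44.7 (WT 2 with KO 2), and like pairs from 10.6 (KO 2 with KO 3) to 48.6 (WT 1 with WT 2), so that these distances alone do not assign the libraries. LPS libraries are therefore called labelled WT or labelled KO, their main comparisons average both labels, and the members' LPS comparisons were repeated without the libraries numbered 3, an alternative chosen after seeing the data. Xist, which female cells express from the inactive X chromosome, was high in every library, at 27953 to 33681 in nonconfined WT, 12153 to 19081 in nonconfined KO, 22734 to 33482 in confined WT, 16980 to 24835 in confined KO and 16450 to 30960 with LPS. The libraries with Y-linked counts thus held Xist RNA too, and the cause was not tested. Acot1, at 478, 377 and 400 in nonconfined KO and 3.81, 0 and 0.98 in nonconfined WT libraries, followed the Y-linked split with LPS. It was at 54.9, 0.92 and 33.6 under the WT label and at 0, 49.2 and 40.7 under the KO label. Pla2g4a did not follow it, with 1005 and 1032 in WT 1 and KO 2 and 969 and 1065 in WT 2 and KO 1. The study used mice of either sex, so that Y-linked counts need not follow the genotype. In the nonconfined and confined groups the Y-linked counts split with the genotype, and any effects of the donors and of the genotype cannot be told apart.

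DC identity was checked with 9 markers (Itgax, H2-Ab1, H2-Aa, Cd74, Ciita, Zbtb46, Cd86, Batf3 and Flt3), all of which were detected and tested. Cd74, the class II invariant chain, was the most abundant of them. The summed level of the 9 was 423777 ± 13287 normalized counts (SD, n = 3) in nonconfined WT, 506816 ± 14577 in nonconfined KO, 373427 in confined WT and 357402 in confined KO. It was 564555 in LPS libraries labelled WT and 566317 in those labelled KO. The direction with LPS depends on the scaling. The markers' median log2 change from nonconfined cells was 0.30, and -0.20 with libraries scaled to the same total. Flt3 and Ciita were called lower with confinement in both genotypes, with log2 changes of -1.53 and -1.03 in WT and of -2.17 and -1.01 in KO. Batf3 was called lower in KO (-1.63), and the co-stimulatory gene Cd86 was called higher in WT (1.39).

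In nonconfined WT cells every member was expressed, and levels per kb of the canonical transcript spanned a wide range. Oas1a was highest at 2957 ± 19.9 normalized counts per kb (SD, n = 3), followed by Oas3 at 1237 ± 50.4, Oas1g at 868 ± 34.3, Oasl2 at 545 ± 29.8 and Oas2 at 416 ± 13.3. Oasl1 at 161 ± 5.9 and Oas1b at 153 ± 19.3 did not differ beyond their spread, and Oas1c was lowest at 111 ± 16.4. The order of the upper members depends on the transcript length used, since with all annotated exons merged Oas1a ranked 3 in place of 1. Oas1a and Oas1g are also close paralogs. Of the 100-base windows of their canonical transcripts, 40.3% of those of Oas1a and 38.2% of those of Oas1g occur in the other gene, no other pair of family genes shares a window, and the split of reads between these 2 genes is uncertain.

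Confined WT and confined KO cells lay on opposite sides of nonconfined cells for most members of the family. In WT cells, 2 of 8 members, Oasl1 and Oas1b, were called higher (adjusted p under 0.05 and a log2 fold change beyond 1), against 11.4% of all tested genes. No member was called lower by limma, against 7.62% of all genes, and none was lower at an unadjusted p under 0.05 or under edgeR or DESeq2. By adjusted p alone 7 of 8 members were higher, against 28.2% of all genes. The median log2 change of the members was 0.55, and that of all tested genes was -0.01. In KO cells 5 of 8 members, Oas1b, Oas1c, Oas2, Oas3 and Oasl2, were called lower, against 5.53% of all genes, and by adjusted p alone 7 of 8 were lower, against 23.4%. No member was called higher in KO cells by limma, against 6.43% of all genes, and 0 rose at an unadjusted p under 0.05 or under edgeR or DESeq2. The members' median log2 change in KO cells was -1.32 beside 0.01 for all tested genes.

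The difference between the 2 responses, the change with confinement in KO minus that in WT, was tested as an interaction. All 8 members were called lower, with limma adjusted p between 8.61e-20 and 0.000131, where 6.56% of all tested genes were called lower and 1.11% higher. The median of the members was -2.01 and that of all genes 0.05. Scaling every library to the same total, in place of the deposited size factors, moved the median of all genes by -0.22 in the WT confinement comparison and by 0.19 in the interaction. Calls in WT cells were then 1618 higher and 2141 lower in place of 2038 and 1362, and in the interaction 506 and 1002 in place of 198 and 1173. Under that scaling Oasl1 and Oas1b were still called in WT cells (4.29 and 1.15), and the other members lay between -0.32 and 0.65. The members' median in WT was 0.32 there, beside -0.23 for all tested genes. In the interaction 7 of 8 members were called, the exception being Oas1c at -0.98.

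Oasl1, the member with the largest change, had 351, 344 and 369 normalized counts in nonconfined WT and 8469, 7905 and 8087 in confined WT libraries. In KO libraries it had 359, 299 and 351 counts without confinement and 358, 334 and 346 with it. The 3 confined WT libraries stood far above the 9 other libraries without LPS, and the confined KO libraries lay inside the range of the nonconfined ones. The log2 fold change was 4.52 ± 0.06 (SE) in WT, a 22.9-fold rise (limma adjusted p = 2.79e-23). In KO cells it was 0.05 ± 0.06 (limma adjusted p = 0.564), with a 95% interval from -0.08 to 0.17. The interaction was -4.47 ± 0.08 (limma adjusted p = 8.61e-20).

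Oasl2, the neighbouring OAS-like gene, which unlike Oasl1 is reported to retain synthetase activity, followed another pattern. It had 1600.2, 1722 and 1783 counts in nonconfined WT and 2575, 2466 and 2453 in confined WT libraries. In KO it had 1506, 1577 and 1577 counts before and 385, 387 and 410.1 after confinement. All confined WT libraries were above and all confined KO libraries below every nonconfined library. The log2 fold change was 0.55 ± 0.05 in WT (limma adjusted p = 1.02e-08, not called for its size, and 0.33 with libraries scaled to the same total) and -1.98 ± 0.05 in KO (limma adjusted p = 3.73e-17), the largest fall among the members. Confined KO cells held 25.4% of the nonconfined KO level.

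**Figure D1:**
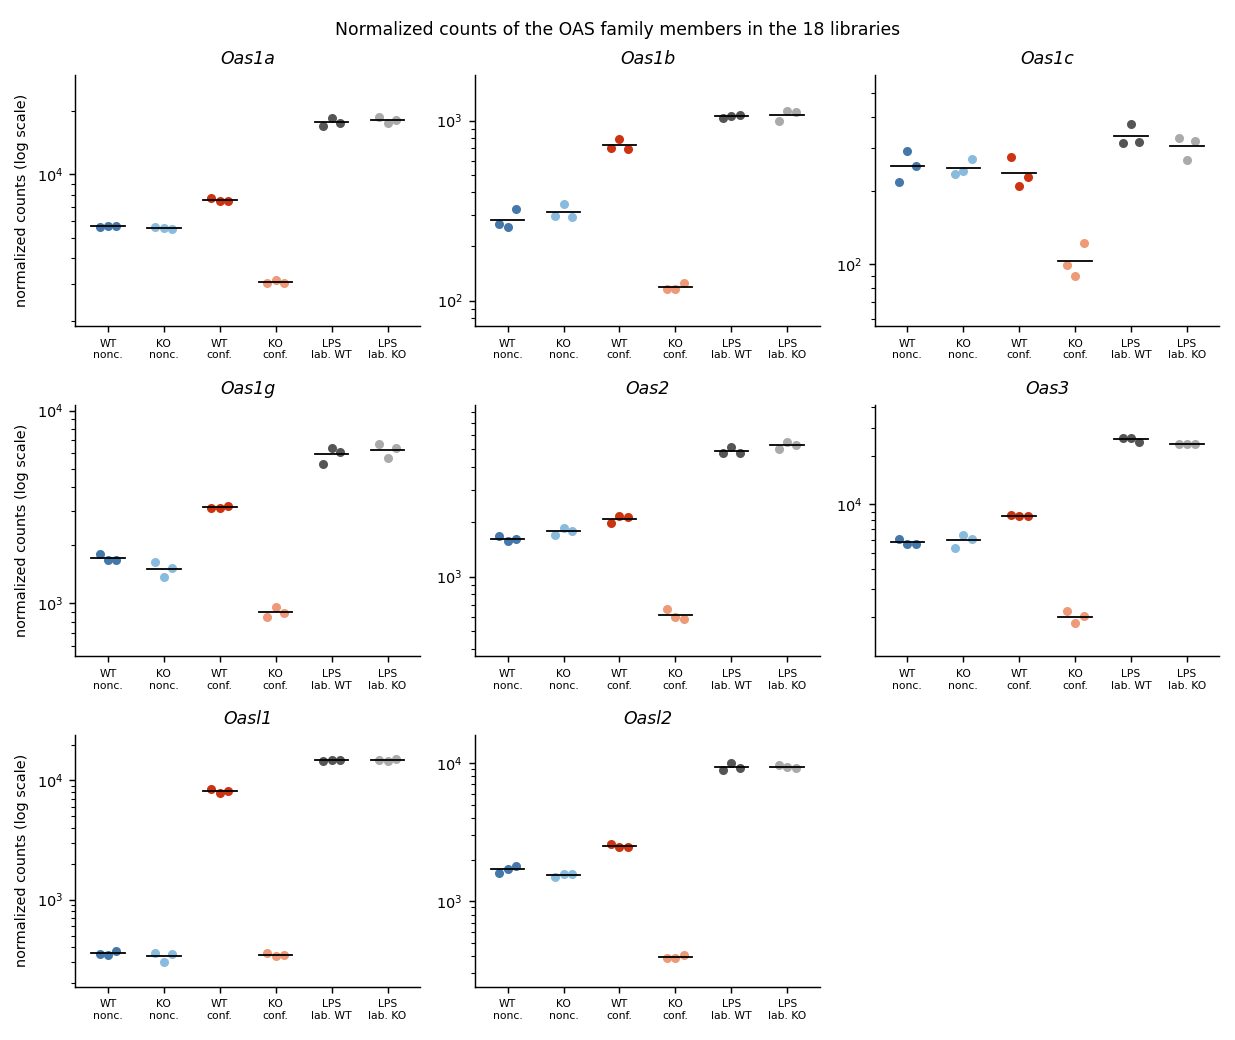
Normalized counts (log axis) of the 8 members in each of the 18 libraries, by condition, with points for libraries and bars for the mean of 3. Oasl1 separates confined WT (7905 to 8469) from all other groups without LPS, while confined KO libraries are the lowest for the other 7 members.

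The members of the Oas1 group encode small synthetases or their relatives. Oas1a, an active synthetase, had 5607, 5665 and 5678 counts in nonconfined WT and 7735, 7456 and 7436 in confined WT libraries. Its KO libraries held 5634, 5582 and 5495 counts without and 3032, 3134 and 3039 with confinement. The nonconfined libraries of both genotypes formed a narrow band, with confined WT above it and confined KO below it. The log2 changes were 0.42 ± 0.04 in WT (limma adjusted p = 1.24e-08) and -0.86 ± 0.04 in KO (limma adjusted p = 2.63e-13), neither past the size threshold, and their difference of -1.28 was. With libraries scaled to the same total the WT value was 0.19.

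Oas1g, the paralog that shares sequence with Oas1a, had 1794, 1686 and 1669.6 counts in nonconfined WT and 3113, 3136 and 3203 in confined WT libraries. In KO the counts were 1629.7, 1376 and 1524 before and 849, 957 and 888 after confinement. Again the confined libraries lay on either side of all nonconfined ones, by genotype. Changes of 0.88 ± 0.07 in WT (limma adjusted p = 1.39e-09) and -0.75 ± 0.07 in KO (limma adjusted p = 3.63e-08) gave a difference of -1.62. With the normalized counts of Oas1a and Oas1g summed, the log2 difference with confinement was 0.54 in WT and -0.84 in KO. The sum does not depend on how reads were divided between the genes, but any shared reads counted for neither are missing from it.

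Oas1b, known as the flavivirus resistance gene of mice, which many laboratory strains carry in a truncated form, had 266, 257 and 322 counts in nonconfined WT and 704, 791 and 692 in confined WT libraries. Its KO libraries went from 295, 344 and 292 to 115, 116 and 125 counts. The changes were of nearly the same size with opposite signs. Oas1b rose by 1.37 ± 0.09 in WT (limma adjusted p = 5.75e-11) and changed by -1.38 ± 0.09 in KO (limma adjusted p = 1.40e-10), and the interaction of -2.75 was second in size to that of Oasl1.

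Oas1c, the lowest of the 8, had 216, 292 and 253 counts in nonconfined WT and 275, 209 and 227 in confined WT libraries. In KO it had 234, 240.2 and 271 counts before and 99.3, 89.6 and 122 after confinement. WT libraries overlapped, and the confined KO libraries were below all others. The log2 change in WT was -0.09 ± 0.14 (limma adjusted p = 0.603), with a 95% interval from -0.39 to 0.20, and its sign turned when nonconfined WT library 2 was left out (0.01). With libraries scaled to the same total the WT value was -0.32 (limma adjusted p = 0.0606). In KO the log2 change was -1.26 ± 0.14 (limma adjusted p = 2.57e-07). The interaction was -1.17 ± 0.20, and -0.98 and not called under that scaling.

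Oas2 and Oas3 encode the medium and large synthetases, built from repeated OAS units. Oas2 had 1669.5, 1566 and 1612 counts in nonconfined WT and 1959, 2149 and 2125 in confined WT libraries. In KO libraries it fell from 1700.2, 1857 and 1783 to 663, 600.3 and 583 counts. Confined and nonconfined libraries of a genotype did not overlap, with a rise of 0.36 ± 0.06 in WT (limma adjusted p = 1.98e-05) that was small beside the change of -1.53 ± 0.06 in KO (limma adjusted p = 1.24e-14). With libraries scaled to the same total the WT value was 0.14 and no longer passed an adjusted p under 0.05.

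Oas3, which senses long double-stranded RNA, had 6119, 5695 and 5718 counts in nonconfined WT and 8601, 8423 and 8519 in confined WT libraries. The KO counts were 5348, 6489 and 6135 without and 2174, 1829 and 2034 with confinement. Confined WT libraries were above, and confined KO libraries below, every nonconfined library. Its log2 changes of 0.54 ± 0.06 in WT (limma adjusted p = 1.55e-07) and -1.57 ± 0.06 in KO (limma adjusted p = 1.73e-14) differed by -2.12, and the WT value was 0.32 with libraries scaled to the same total.

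**Figure D2:**
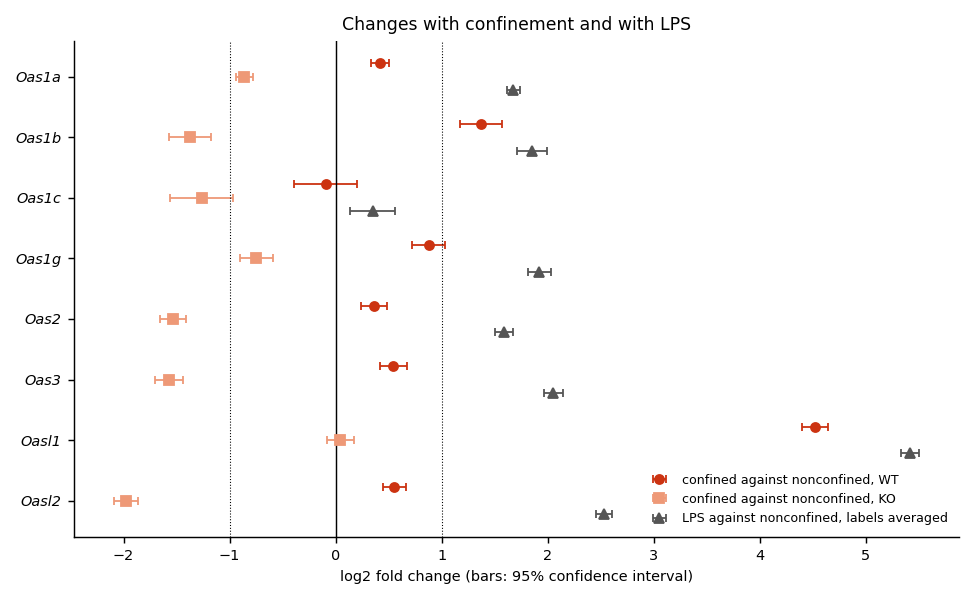
Log2 fold changes (points) with 95% intervals (lines) of the 8 members for confinement in WT, confinement in KO and LPS, each against nonconfined cells, with dotted lines at the call thresholds of -1 and 1. Confinement values run from -0.09 to 4.52 in WT and from -1.98 to 0.05 in KO, and LPS values from 0.35 to 5.42, where Oas1c turns to -0.15 with libraries scaled to the same total.

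Genotype was then compared within each setting, which uses the same libraries as the confinement comparisons. Without confinement, limma called 0 of 8 members higher, against 0.85% of all tested genes, and 0 lower, against 0.302%. Log2 differences of KO from WT ranged from -0.19 for Oas1g to 0.14 for Oas1b, the smallest limma adjusted p was 0.125, and the 95% intervals of the members together spanned -0.34 to 0.34. At an unadjusted p under 0.05 there were 3 of 8 members, beside 4005 of the 17875 tested genes, and edgeR and DESeq2 also called 0 members. After confinement, all 8 members were called lower in KO than in WT, against 7.31% of all genes, and 0 higher, against 2.79%. The log2 differences ran from -4.55 for Oasl1, through -2.66 for Oasl2, -2.61 for Oas1b and -2.08 for Oas3, to -1.19 for Oas1c, with limma adjusted p of at most 6.61e-07. By limma adjusted p alone 3682 of the 17875 tested genes were lower and 3356 higher in confined KO than in confined WT cells. The members' median was -1.95 beside 0.04 for all tested genes. Scaling to the same total moved the median of all genes by 0.15 and the calls to 780 higher and 1111 lower from 498 and 1307, and all 8 members were still called lower, between -4.40 and -1.04.

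LPS raised 7 of 8 members past the call thresholds, against 15.6% of all tested genes called higher. The 6 LPS libraries had a lowest, median and highest count of 14501, 14761 and 15046 for Oasl1, where the highest of the 6 nonconfined libraries had 369. For Oasl2 the corresponding counts were 8939, 9289 and 9993, and the highest nonconfined library had 1783. LPS and nonconfined libraries of these genes were far apart, with log2 fold changes of 5.42 ± 0.04 for Oasl1 (limma adjusted p = 6.06e-28) and 2.53 ± 0.04 for Oasl2 (limma adjusted p = 3.16e-23).

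Among the synthetase genes, Oas3 reached 23545, 24048 and 25966 counts (lowest, median and highest of 6) with LPS. Oas1a reached 16936, 17907 and 18658, Oas1g 5308, 6238 and 6705, Oas2 4797, 5091 and 5501, and Oas1b 994, 1067 and 1126. Each of these 5 genes was higher in every LPS library than in any other library, confined ones included. Their log2 changes from nonconfined cells were 2.05 for Oas3, 1.68 for Oas1a, 1.92 for Oas1g, 1.59 for Oas2 and 1.85 for Oas1b. Oas1c was the exception, with 268, 318 and 373 counts that overlapped the nonconfined libraries, and a log2 change of 0.35 ± 0.10 (limma adjusted p = 0.00403).

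By adjusted p alone 8 of 8 members were higher with LPS, against 37.2% of all tested genes. None of the 8 was called lower by limma, edgeR or DESeq2 or lower at an unadjusted p under 0.05, against 13.4% of all genes called lower. The median of the members was 1.88 and that of all genes 0.02. Without the LPS libraries numbered 3 the same 7 members were called, and the values were 5.41 for Oasl1, 2.54 for Oasl2, 2.07 for Oas3, 1.68 for Oas1a, 1.90 for Oas1g, 1.59 for Oas2, 1.83 for Oas1b and 0.35 for Oas1c. Each label taken alone against the nonconfined cells of its name gave 7 called members too, with Oasl1 at 5.37 for the WT label and 5.46 for the KO label. Scaling to the same total moved the median of all genes by -0.48 and the calls to 1808 higher and 4589 lower from 2791 and 2397. The 7 members were still called higher there, between 1.09 for Oas2 and 4.92 for Oasl1, and Oas1c lay at -0.15.

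Between the LPS libraries labelled KO and those labelled WT, limma called 0 of 8 members higher, against 0.0% of all tested genes, and 0 lower, against 0.0%. Member differences lay between -0.14 and 0.10, none passed an unadjusted p under 0.05, and edgeR and DESeq2 called 0 of the 17875 genes as limma did, although 890 genes had an unadjusted p under 0.05. Without the libraries numbered 3, limma called 2 of the 17875 genes and 0 members. Since the Y-linked counts do not split by these labels, as they do by genotype without LPS, this value is not read as an effect of the genotype.

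Confined WT cells were compared with LPS-treated cells, a comparison that shares its libraries with those above. Confined WT cells had 0 members called higher by limma, against 6.97% of all genes, 0 higher at an unadjusted p under 0.05 and 0 called higher by edgeR or DESeq2. They had 4 of 8 called lower (Oas1a, Oas2, Oas3 and Oasl2), against 7.84%. By adjusted p alone 8 of 8 were lower, against 29.8%. The log2 differences of confined WT from LPS were -1.91 for Oasl2, -1.52 for Oas3, -1.29 for Oas2, -1.25 for Oas1a, -0.95 for Oas1g, -0.86 for Oasl1, -0.55 for Oas1b and -0.43 for Oas1c, with a median of -1.10 beside -0.01 for all genes. As a share of the mean LPS level, confined WT cells reached 26.6% for Oasl2, 34.7% for Oas3, 40.8% for Oas2, 42.0% for Oas1a, 51.7% for Oas1g, 55.2% for Oasl1 and 68.3% for Oas1b. For Oas1c the libraries overlapped. Without the LPS libraries numbered 3 the same 4 members were called, Oasl2 at -1.92 and Oas3 at -1.54. With libraries scaled to the same total, where the median of all genes moved by 0.28 and calls were 2118 higher and 956 lower in place of 1245 and 1402, 3 members were called and Oas1a lay at -0.96. By adjusted p alone 7 of 8 were then lower, the exception being Oas1c at -0.14 (limma adjusted p = 0.330). Oasl1 lay at -0.57 and Oas1b at -0.26 there, so that their shares of the LPS level depend on the scaling.

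The normalized counts of the 8 members were also summed. The sum was 17418 ± 197 (SD, n = 3) in nonconfined WT and 17300 ± 540 in nonconfined KO, 32903 ± 469 in confined WT, 7557 ± 115 in confined KO, and 79217 ± 1855 (SD, n = 6) with LPS. Oasl1 made up 2.04% of the sum in nonconfined WT, 1.95% in nonconfined KO, 24.8% in confined WT, 4.58% in confined KO and 18.7% with LPS. In confined WT cells levels per kb ran from Oas1a (3947 ± 87.5) and Oasl1 (3689 ± 130) through Oas3 (1803 ± 18.8), Oas1g (1594 ± 23.5), Oasl2 (800 ± 21.5), Oas2 (535 ± 26.7) and Oas1b (397 ± 29.6) to Oas1c (104 ± 14.9). Oasl1 thus moved from the lower end of the order to its upper end, and with merged exon lengths it ranked 1. In confined KO cells Oas1g (454 ± 27.5 per kb) and Oas3 (426 ± 36.8) did not differ beyond their spread, nor did Oas2 (158 ± 10.7) and Oasl1 (157 ± 5.5). With LPS the neighbours within their spread were Oas1g (3085 ± 260 per kb, n = 6) and Oasl2 (3011 ± 125).

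Other OAS pathway genes included Abce1, a ribosome recycling factor, and Pde12 and Akap7, phosphodiesterases that degrade or can degrade oligoadenylates. The further genes Oas1d, Oas1e, Oas1f and Oas1h stayed below the filter, with maxima of 11.6, 8.58, 1.94 and 0 normalized counts. Abce1 changed by -0.42 with confinement in WT (limma adjusted p = 2.27e-07) and by -0.05 in KO (limma adjusted p = 0.479), short of the size threshold in WT. Pde12 had 0.01 in WT (limma adjusted p = 0.887) and 0.07 in KO (limma adjusted p = 0.396). Akap7 had -0.19 in WT (limma adjusted p = 0.127) and -0.17 in KO (limma adjusted p = 0.191). None of these 3 genes was called by limma in either confinement comparison or the interaction. At an unadjusted p under 0.05 there was 1, Abce1, in WT and in the interaction. With libraries scaled to the same total, all 3 were lower in WT by limma adjusted p alone, still short of the size threshold. The values were -0.65 for Abce1 (limma adjusted p = 4.13e-10), -0.21 for Pde12 (limma adjusted p = 0.00595) and -0.42 for Akap7 (limma adjusted p = 0.00191). The interaction of Pde12 was then 0.24 (limma adjusted p = 0.0364).

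Other sensors of double-stranded RNA and their partners formed a list of 10 genes, all tested. In WT cells confinement raised 4 of them, the RNA-activated kinase PKR gene Eif2ak2 by 1.00, the helicase sensor genes Ifih1 by 2.05 and Ddx58 by 1.07, and the RNA editing gene Adarb1 by 2.67, and limma called 0 lower, with 1 lower at an unadjusted p under 0.05. In KO cells 3 were called lower, Ddx58 (-1.14), Dhx58 (-1.67) and Tlr3 (-1.77), and limma called 0 higher, with 0 higher at an unadjusted p under 0.05. The interaction was called lower for 7 genes, from Ifih1 at -2.89, Dhx58 at -2.33, Ddx58 and Tlr3 at -2.21 and Adarb1 at -2.15 to Eif2ak2 at -1.79 and Zbp1 at -1.50. List medians were 0.59 in WT, -0.81 in KO and -1.97 for the interaction, beside -0.01, 0.01 and 0.05 for all tested genes. With LPS 7 were called higher and 1 lower. Of all tested genes 11.4% were called higher in WT, 5.53% lower in KO, 6.56% lower in the interaction and 15.6% higher with LPS. Scaled to the same total, which was done for the gene lists after seeing the data, this list had 2 genes called higher and 1 lower with confinement in WT, where Eif2ak2 (0.78) and Ddx58 (0.85) lost their calls, 4 lower in KO, 7 lower in the interaction, and 6 higher and 2 lower with LPS. List medians were 0.37 in WT, -0.85 in KO and -1.79 for the interaction under this scaling. Ifih1 had 1914, 1926 and 2020.4 counts in nonconfined WT and 8103, 8465 and 7715 in confined WT libraries. In KO it had 1773, 1894 and 1900.2 counts before and 1107, 1065 and 951 after confinement, with no overlap between any confined and nonconfined libraries.

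The list of interferon signalling genes upstream of OAS promoters held 18 genes, of which 17 were tested, Ifna4 staying below the filter with a maximum of 8.49. Confinement raised 6 in WT cells, the receptor gene Ifnar1 (1.08), Stat2 (1.26), Irf1 (1.07), Irf7 (1.31), the feedback inhibitor Usp18 (1.49) and the ligand Ifnb1 (4.19), and limma called 0 lower, with 1 lower at an unadjusted p under 0.05. In KO cells Ifnb1 was the 1 gene called higher (1.88), and 3 were called lower, among them Irf7 (-1.29) and Usp18 (-1.55). The interaction was called lower for 8, among them Usp18 (-3.04), Irf7 (-2.60), Ifnb1 (-2.30), Stat2 (-1.76), Irf1 (-1.57), Irf9 (-1.35) and the inhibitor Socs1 (-1.22). List medians were 0.61 in WT, -0.24 in KO and -0.89 for the interaction. LPS raised 11 of the 17, against 15.6% of all tested genes, with a list median of 1.11 beside 0.02 for all tested genes. The shares of all tested genes called with confinement are those given for the preceding list. Scaled to the same total, 4 genes were called higher with confinement in WT, where Ifnar1 (0.86) and Irf1 (0.84) lost their calls. In KO 1 was higher and 4 were lower, in the interaction 8 were lower, and LPS raised 7 and lowered 1. List medians were then 0.38 in WT, -0.28 in KO, -0.70 for the interaction and 0.61 with LPS. Those of all tested genes were -0.23, -0.02, 0.24 and -0.46.

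Ifnb1, which encodes interferon beta, was near the detection limit in nonconfined cells, at 3.05, 5.12 and 5.90 counts in WT and 0, 1.86 and 3.88 in KO libraries. With confinement it reached 105, 92.6 and 103 counts in WT and 11.9, 6.40 and 6.38 in KO. Confined KO libraries were thus above all nonconfined ones and far below confined WT ones, and the change in KO rests on few reads. The LPS libraries ran from 134 to 167 counts.

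Markers of other cell types that GM-CSF cultures can hold moved with genotype and confinement as well, and fewer cells of a type and less RNA per cell cannot be told apart in bulk libraries. By the study's methods, cells were selected by adhesion, which removes floating granulocytes and leaves firmly attached macrophages behind. The 13 neutrophil markers, led by S100a9, summed to 260957 normalized counts in nonconfined WT, 378010 in nonconfined KO, 166321 in confined WT and 362961 in confined KO, and to 310745 and 308064 in LPS libraries labelled WT and KO. Confinement lowered 8 of the 13 in WT (Elane, Mpo, Ms4a3, Prtn3, Ctsg, Ltf, Ly6g and Retnlg) and 1 in KO (Mpo), and the interaction was called higher for 5. Of all tested genes 7.62% were called lower in WT, 5.53% lower in KO and 1.11% higher in the interaction. In the confined groups 10 of these markers were called higher in KO than in WT, against 2.79% of all tested genes. None of the 13 was at 0.

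The 7 mast cell and basophil markers, led by Cpa3, summed to 9843, 14363, 4353 and 7502 counts in nonconfined WT, nonconfined KO, confined WT and confined KO, and to 9584 and 9797 in LPS libraries labelled WT and KO. The same 5 (Mcpt8, Cpa3, Prss34, Ms4a2 and Fcer1a) were called lower with confinement in both genotypes. Eosinophil markers (5, led by Prg2) summed to 28048, 65571, 7271 and 16442 counts in the same order of groups and to 31594 ± 8242 and 31610 ± 8149 in the LPS libraries. Of these 5, Epx, Prg2 and Ear1 were called lower in both genotypes, and Ccr3 was called higher in WT (1.14, and 0.92, not called, with libraries scaled to the same total) and lower in KO (-1.92), the 1 eosinophil marker called in the interaction. Nonconfined KO cells had 4 of the 5 called higher than nonconfined WT cells, against 0.85% of all tested genes. With LPS 0 of the 5 were called against nonconfined cells, or 2 lower with libraries scaled to the same total. Their median log2 change with LPS was -0.44, and -0.94 with that scaling.

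The 10 macrophage markers, led by Csf1r and with Vsig4 at 0, summed to 62908, 68814, 62754 and 68912 counts in these 4 groups and to 66696 and 65558 with LPS. Marco was called higher with confinement in WT (1.82), and C1qa and Fcgr1 were called lower in KO (-1.11 for each). With libraries scaled to the same total, C1qa was also called lower in WT (-1.10). Marco was called higher in KO than in WT cells without (2.21) and with confinement (1.35), and Fcgr1 lower with it (-1.21). With LPS Marco was called higher (4.94) and 0 were called lower, or 3 with the same total per library. By limma adjusted p alone 3 were higher and 5 lower with LPS. Neutrophil, mast cell and basophil, eosinophil and, by less, macrophage sums were thus higher in nonconfined KO than in nonconfined WT, where no member was called. Their part in the confinement results was not tested.

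To place the family among all genes, the mean centred profile of the 8 members was compared with 10546 other genes with a symbol and a mean of at least 100 normalized counts over the 18 libraries, which share 6 conditions and 1 scaling. The 10 most alike included Ddx58 (Pearson r = 0.9992), an entry shared by Ifi47 and Olfr56 (0.9989), Trim21 (0.9981), Xaf1 (0.9979), Znfx1 (0.9977), Herc6 (0.9971), Ccl5 (0.9969), and Slfn5 and Tap1 (0.9968 each). Ddx58 had 2721, 2800.3 and 2756 counts in nonconfined WT and 5706, 5822 and 5864 in confined WT libraries. In KO it had 2502, 2816 and 2806 counts before and 1299, 1162 and 1228 after confinement, and with LPS from 12415 to 12918. Its level rose with confinement in WT, fell in KO and was highest with LPS. The likeness to the members' mean follows from how Ddx58 was chosen.

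Each member also had a closest gene of its own. These were Lacc1 for Oas1a (r = 0.9976), Isg20 for Oas1g (0.9977), Trim30b for Oas1b (0.9935), Fcgr1 for Oas1c (0.972), Ifi203 for Oas2 (0.9962), Dhx58 for Oas3 (0.9974), Arl5c for Oasl1 (0.9989) and Phf11b for Oasl2 (0.998). Arl5c changed by 2.25 with confinement in WT, 0.07 in KO and 2.83 with LPS, and so had no fall in KO, like Oasl1. Fcgr1 changed by 0.06, -1.11 and 0.44 in these 3 comparisons, near the values of Oas1c. Both genes were chosen for their likeness over the same libraries, so that these similarities follow from the choice. Among the members the lowest correlation was between Oas1c and Oasl1 (r = 0.579) and the highest between Oas3 and Oasl2 (r = 0.997).

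The members lie at 2 places on mouse chromosome 5 (GRCm39, gene ends as in the deposited table). A cluster of 10 Oas genes occupies 191.3 kb at chr5:120868398-121059717, in the order Oas2, Oas3, Oas1e, Oas1c, Oas1b, Oas1f, Oas1h, Oas1g, Oas1a and Oas1d. Oas1b (GSMG0041048) on the plus strand and Oas1c (GSMG0042923) on the minus strand start 88 bases apart and face away from each other. Oasl2 (GSMG0040951) and Oasl1 (GSMG0040953) lie 11.0 kb apart at chr5:115034995-115050306 and chr5:115061298-115075974, 5.79 Mb from the cluster. Expressed genes and genes under the filter are interspersed in the cluster, since Oas1e, Oas1f, Oas1h and Oas1d lie between or beside members that responded. The nearest tested genes outside the 2 places, chosen after their values were seen, were Rasal1 and Rph3a beside the cluster and 2610524H06Rik and 2210016L21Rik beside Oasl2 and Oasl1. In this order they changed with confinement by -0.58, -0.03, -0.32 and -0.18 in WT and by -0.09, -0.41, -0.36 and -0.16 in KO, all short of the size threshold. Rasal1 (limma adjusted p = 0.0169) and 2210016L21Rik (limma adjusted p = 0.0184) passed by adjusted p alone in WT, and 2210016L21Rik (limma adjusted p = 0.0408) in KO. With LPS 2610524H06Rik was called lower (-1.03, limma adjusted p = 1.05e-07), and the other values were 0.77 for Rasal1, 0.09 for Rph3a and -0.20 for 2210016L21Rik.

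**Figure D3:**
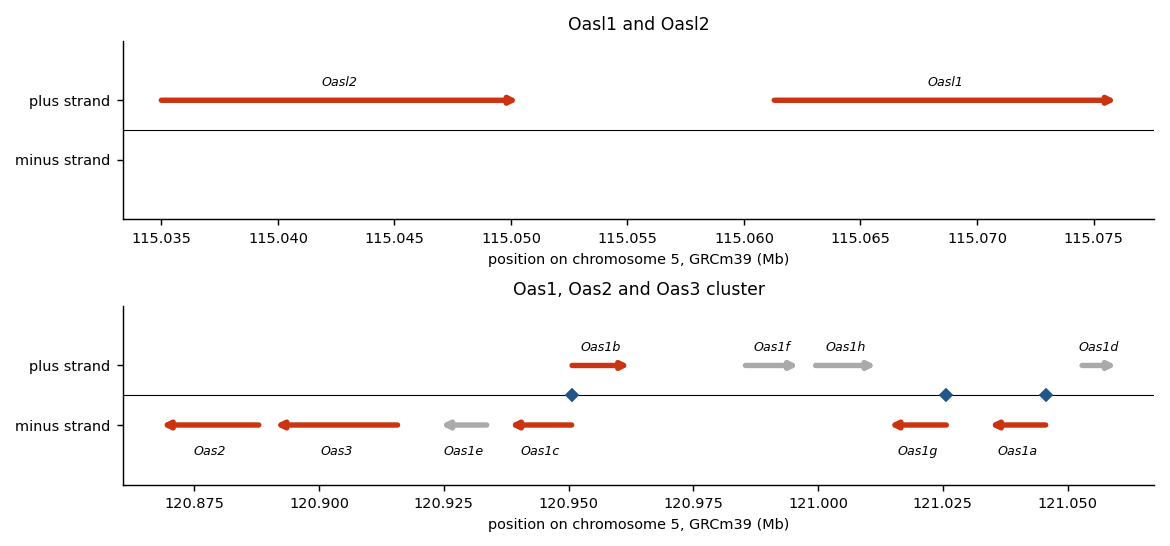
The 2 places on chromosome 5 that hold the family (GRCm39 position on the horizontal axis), with members in red, other genes in grey and blue diamonds for the 3 copies of a 16-base run. By the gene starts of the deposited table, the copies lie just before Oas1b, Oas1g and Oas1a; several GENCODE transcripts of Oas1a start upstream of its copy.

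The promoters of the members were searched for interferon-linked motifs. RefSeq windows from 250 bases before to 50 bases after the gene start (GRCm38.p6 table, placed on GRCm39 by exact match) were matched for 6 of 8 members, the other members being Oas1b and Oas2. The core of the interferon-stimulated response element, GAAANNGAAA on either strand, is in 3.44% of the 32851 windows of the table, and was in those of 4 members, Oas1a, Oas1g, Oas1c and Oas3. The gamma-activated sequence TTCNNNGAA is in 8.30% of windows and was in that of Oas1a. An NF-kB site is in 8.46% and was in those of Oas1c, Oas3 and Oasl1. None of these 3 motifs was in the Oasl2 window, which says nothing of sites outside it. The stretches below are 60 bases long and are shown because they hold these matches, with the response element core, or 2 overlapping cores, in capitals for Oas1a, Oas1g, Oas1c and Oas3 and overlapping NF-kB matches in capitals for Oasl1. They are read on the strand of the gene, which is plus for Oasl1 and minus for the others, at chr5:121045589-121045648, chr5:121025677-121025736, chr5:120950659-120950718, chr5:120915765-120915824 and chr5:115061239-115061298.
Oas1a: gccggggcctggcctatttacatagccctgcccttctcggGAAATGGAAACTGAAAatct
Oas1g: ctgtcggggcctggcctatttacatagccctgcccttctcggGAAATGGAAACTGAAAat
Oas1c: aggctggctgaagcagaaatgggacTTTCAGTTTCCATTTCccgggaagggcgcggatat
Oas3: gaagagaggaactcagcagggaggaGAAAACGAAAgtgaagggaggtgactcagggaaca
Oasl1: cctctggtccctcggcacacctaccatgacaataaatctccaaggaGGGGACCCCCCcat

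The capitals of Oas1a and Oas1g are the same 16 bases, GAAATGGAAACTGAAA, and those of Oas1c are these bases on the other strand. Of all 32851 windows 7 hold this run on either strand (0.0213%), and they belong to Apol9a, Apol9b, Oas1a, Oas1c and Oas1g. Across the whole cluster the run occurs 3 times, at chr5:120950678-120950693 on the plus strand, 7 bases before the start of Oas1b, at chr5:121025679-121025694 on the minus strand, 3 bases before that of Oas1g, and at chr5:121045593-121045608 on the minus strand, 5 bases before that of Oas1a in the deposited table. The copy in the Oas1c window is thus the one next to Oas1b, on whose strand it reads. GENCODE starts exon 1 of several Oas1a transcripts upstream of its copy, so that there the run lies inside the exon. Of the genes next to a copy, Oas1b, Oas1g and Oas1a rose with confinement in WT by 1.37, 0.88 and 0.42, and Oas1c had -0.09. A match describes the sequence and does not show that a factor binds there.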

How the data were processed

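The authors sequenced strand-specific poly(A) libraries of the 18 samples. The study's methods name 2 kits for its RNA-seq, and the sources used here do not say which library used which kit. Per the submitters' processing notes, reads were handled with STAR 2.7.5a, featureCounts 1.5.0, DESeq2 and R 3.5.3 on mm39. The deposited signal values are counts divided by DESeq2 size factors; 100% of them gave whole reads when rescaled (tolerance 1e-06). Log2(value + 1) was fitted with limma 3.58.1 (trend, R 4.3.3) over all 6 conditions for 17875 genes, with Benjamini-Hochberg adjustment per comparison. edgeR 4.0.16 and DESeq2 1.42.0 on the recovered reads, other scalings, filters and pseudocounts, a replicate block and each library left out were alternatives. Fold changes understate changes of low genes. Python 3.11.15, pandas 2.3.3, scipy 1.17.1 and matplotlib 3.10.9 were used. Named genes are the 8 members, list genes called in a confinement comparison or the interaction, the 10 genes most like the members' mean profile and the closest gene of each member; some genes under this rule are not reported here. Members and lists were chosen with earlier results of these data known.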

Additional observations from a re-analysis of the deposited data

Results flagged for a closer look

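The change with confinement differed between genotypes for each of the 8 members by limma's interaction test. The log2 change in KO minus that in WT was -4.47 for Oasl1, -2.75 for Oas1b, -2.53 for Oasl2, -2.12 for Oas3, -1.89 for Oas2, -1.62 for Oas1g, -1.28 for Oas1a and -1.17 for Oas1c. For Oasl1 the difference came with a rise in WT and an interval around 0 in KO, while Oas1c had its change in KO and an interval around 0 in WT. The cause of these differences was not tested.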

How the results depend on the processing

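Of 1159 recomputed values of 60 results under 34 settings, 156 counts of called members were equal to those reported, 7 differed by at most 1.5 times, and 988 other values kept their direction and their side of the threshold or moved within the spread. The 7 counts were 3 for confinement in WT, 7 for confinement in KO and 6 for confined WT against LPS with a fold change of 1.5 and unadjusted p, 7 for confinement in KO and 8 for LPS by adjusted p alone, and 7 for the interaction and 3 for confined WT against LPS with the same total per library. Counting by adjusted p alone moved the number of members called from 2 to 7 for confinement in WT and from 4 to 8 for confined WT against LPS. Among the 60 results the sign turned for 3 values that were not called to begin with. Oas1c with confinement in WT ranged from -0.21 to 0.0122 when libraries were left out, the highest without nonconfined WT library 2. Oasl1 with confinement in KO ranged from -0.0374 to 0.0943, the lowest without nonconfined KO library 2. Oas1c with LPS was -0.15 with the same total per library. Under that scaling Oas1c in the interaction (-0.98) and Oas1a in confined WT against LPS (-0.96) lost their calls. The highest KO difference of a member in nonconfined cells was 0.24 without nonconfined WT library 3. Genotype differences of members near 0 also turned sign when libraries were left out, in nonconfined cells for Oas1c (-0.13 to 0.084), Oas3 (-0.028 to 0.111) and Oasl1 (-0.13 to 0.0016), and between LPS labels for Oas1b, Oas1g, Oasl1 and Oasl2. The cause was not tested. With a replicate block the numbers of members called were 2, 5, 8, 0, 8, 7, 0 and 4, as without it. The numbers were not used to pair the samples. In 0 of 15 pairs of groups were all same-number correlations above 0.1, a rule that cannot show that no groups are paired. Confined WT and confined KO libraries had 0.34, 0.21 and 0.04 for like numbers and from -0.31 to 0.17 for unlike ones. Among the members Oas1c had the fewest reads over all libraries (4687), and Ifnb1 had 1244 and Adarb1 706.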
